A study of Mus musculus with 3 samples.

Results

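H19, Dlk1, Meg3, Mest, Peg3, Plagl1, Cdkn1c, Grb10 and Ndn are imprinted genes of embryonic growth, and they were followed here in mouse embryonic fibroblasts (MEF) cultured with n-butylidenephthalide (BP), a compound of the herb Angelica sinensis. The members were chosen by name, and every array probe that carried 1 of the names was used. This gave 24 of 55681 gene probes, for 9 of the 35696 gene names on the array. MEF are primary cells from the minced trunk of embryos, here of the C57BL/6 strain, from which heads, legs and internal organs had been taken away, so that a culture is a mixed mesenchymal population and not a clone. The 3 groups were control MEF, MEF with BP at 10 µg/ml (BP10) and MEF with BP at 40 µg/ml (BP40). All were kept in DMEM with heat-inactivated FBS; the labels give no treatment for the control, whereas the methods describe it as DMSO, the solvent of BP. Each group was measured on 1 single-colour Cy3 Agilent mouse array.

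An imprinted gene is read from only the maternal or only the paternal chromosome, according to DNA methylation that was laid down in the egg or the sperm and is kept in the cells of the embryo. Paternally expressed imprinted genes often favour growth of the fetus and maternally expressed ones often restrain it, and many fall silent after birth. Of the members, Dlk1, Mest, Peg3, Plagl1 and Ndn are expressed from the paternal copy, and H19, Meg3 and Cdkn1c from the maternal copy. Grb10 is maternal in most fetal tissues and paternal in neurons. The arrays read total RNA, so they do not tell which copy was expressed, and fewer cells of a type cannot be told apart from less RNA per cell.

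Levels below are log2 intensities minus the 75th percentile of the gene spots of the same array, so that 0 stands for that percentile, and ratios are differences of 2 such levels. A probe was called changed at a ratio of at least 2-fold when 1 or both arrays of the pair showed it well above background. With 1 array per group there were no replicate cultures, no p-value is given, and every ratio compares 2 arrays. The BP10 and BP40 arrays shared a scan session that the control array did not, so that in a ratio against control the session and BP cannot be told apart. Of the gene spots, the scanner software marked 81.7% (control), 68.3% (BP10) and 69.1% (BP40) as well above background. As a measure of error within an array, 399 probes printed 10 times had a median SD of 0.13 on control, 0.07 on BP10 and 0.07 on BP40, and the median SD of the ratio between 2 probes of the same gene, both of a mean level above 0, was 0.20 at BP10, 0.13 at BP40 and 0.15 between the BP arrays. All 24 member probes were well above background on all 3 arrays and none was saturated.

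Meg3 is a long noncoding RNA whose probes differed at the higher dose, and 2 of its 3 probes, the first of which was called for BP40 against BP10, were, in the order of transcription, 5′ to 3′ and without capitals because no motif is marked,
Meg3 A_52_P196568: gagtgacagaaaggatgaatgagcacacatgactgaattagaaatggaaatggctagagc
Meg3 A_51_P455997: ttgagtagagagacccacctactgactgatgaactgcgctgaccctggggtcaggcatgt
The second of these began 10120 bases after the first, on the plus strand at chr12:110799558-110799617 and chr12:110809678-110809737 as the array files place them. H19 is also noncoding, and the probe nearest the end of its RNA and the probe 925 bases before it were
H19 A_55_P1961127: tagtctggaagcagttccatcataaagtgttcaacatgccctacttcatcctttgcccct
H19 A_55_P1961125: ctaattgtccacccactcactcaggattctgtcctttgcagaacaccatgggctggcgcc
The files place them on the minus strand at chr7:149761492-149761551 and chr7:149762417-149762476. The genome build of these coordinates is not named in the files and is not GRCm38, since 0 of the 24 member probes lie inside the GRCm38.p6 span of their gene, so exons and introns were not assigned here.

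Mest was lower at both doses on all 3 of its probes, of which 1 was called at BP10. It encodes an enzyme of the hydrolase family that is abundant in fetal mesoderm and in expanding fat tissue, and RefSeq places it at chr6:30733506-30748466 of GRCm38.p6 on the plus strand. The probe nearest the end of its RNA, A_51_P124535, was at 2.87 on control, 1.75 on BP10 and 1.41 on BP40. Its ratio against control was -1.13 for BP10 and -1.47 for BP40, which is 2.18-fold and 2.76-fold lower. This probe was printed 10 times on each array, with a median intensity of 12922 on control, 4759 on BP10 and 3299 on BP40. Between spots the SD of the log2 level was 0.05, 0.06 and 0.05 in that order, and the 10 spots of any array did not overlap with those of another; the scanner software flagged 0, 3 and 4 of them as outliers, which were left out of the level. The spots share 1 hybridisation and measure the printing of the array, not the cultures.

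**Figure D1:**
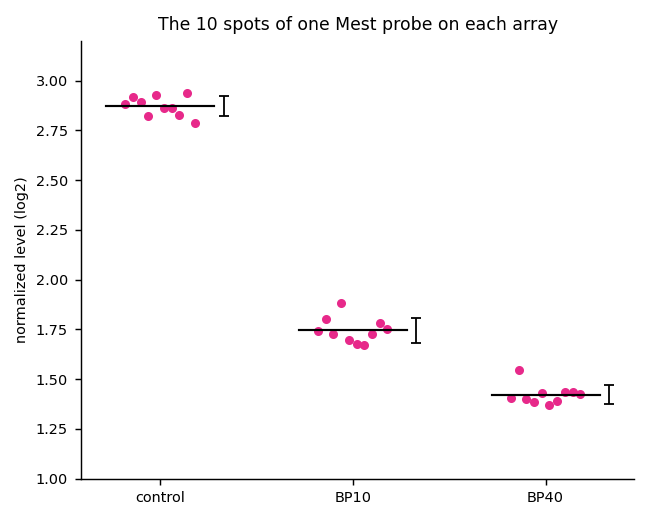
Normalized log2 level (vertical axis; 0 is the 75th percentile of the array) of the 10 spots of the Mest probe A_51_P124535 on the control, BP10 and BP40 arrays, outlier spots included. Points are spots, the black line is their mean and the error bar to its right 1 SD; the control spots lie between 2.79 and 2.94, the BP10 spots between 1.67 and 1.88 and the BP40 spots between 1.37 and 1.55.

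The other 2 Mest probes were lower as well, less so at the lower dose. A_55_P2090025 was at 1.27, 0.53 and -0.26 on control, BP10 and BP40, a ratio of -0.74 for BP10 and -1.53 for BP40. A_55_P2151868 was at -1.73, -2.03 and -3.23, a ratio of -0.30 and -1.50. The 3 probes thus spread from -1.13 to -0.30 at BP10 and from -1.53 to -1.47 at BP40, and 1 of them was called at BP10 and all 3 at BP40. Over 6 other ways of scaling the arrays, their ratios at BP40 stayed between -1.60 and -1.03. At BP40, 0.2% of the bright probes (mean level above 0) had a lower ratio than A_51_P124535 and A_55_P2090025, the 2 Mest probes that were bright by this measure. Over all probes of the array, dim ones included, 8.4%, 7.5% and 7.9% had a lower ratio than A_51_P124535, A_55_P2090025 and A_55_P2151868. At BP10 these shares were 17.1%, 28.2% and 46.6% in the same order. The ratio of A_55_P2151868 at BP10, -0.30, was thus near the median of all probes, -0.24. Over the 6 other scalings it came as close to 0 as -0.06.

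Cdkn1c was the other member called against control. It encodes p57, an inhibitor of the cyclin-dependent kinases that drive entry into S phase, and RefSeq places it at chr7:143458339-143461059 of GRCm38.p6. Its single probe, A_51_P339540, was at 2.17 on control, 1.52 on BP10 and 0.85 on BP40. The ratio was -0.65 at BP10, short of the threshold, and -1.32 at BP40, which is 2.50-fold lower than control. BP40 was also lower than BP10, by a ratio of -0.67, in the pair of arrays scanned together, and over the 6 other scalings the ratio at BP40 against control lay between -1.39 and -1.26. Cdkn1c has no second probe with which to compare it.

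Of 19 genes whose proteins work with p57 or other members (cyclins, kinases and inhibitors of the cell cycle, E2f1, Lrp6, Siah1a, Sox9, Traf2, and receptors and substrates of insulin, IGF and Notch signaling), 0 of 19 were called at BP10 and 0 of 19 at BP40 with 1 probe per gene, beside 13.1% and 11.7% of all genes. Their median level on control was 2.09, and of the bright probes of the array 2.27% were called at BP10 and 1.63% at BP40. The median ratio of the 19 genes was -0.06 at BP10 and 0.07 at BP40. Among the brighter ones, Cdk4, the kinase of G1 phase, was at 5.98, 5.91 and 5.74 on control, BP10 and BP40, and its partner Ccnd1 (cyclin D1) at 5.12, 5.16 and 4.80. The related inhibitor Cdkn1a (p21) was at 4.53, 4.35 and 4.88, and Ccne1 (cyclin E1) at 3.80, 3.84 and 4.23, whereas the other Ccne1 probe had a ratio of 1.05 at BP10 and 0.79 at BP40. The 3 Cdkn1a probes ranged from -0.18 to 0.81 at BP10 and from -0.08 to 0.35 at BP40. The count of 0 of 19 at BP40 holds only for the scaling used for these levels. With spike-in scaling, described below, every ratio at BP40 would be lower by about 0.8. That would take some of the 19 genes past 2-fold, Irs1 (-0.35) and Ccnd1 (-0.32) among them, while others such as E2f1 (0.38) would stay within it.

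**Figure D2:**
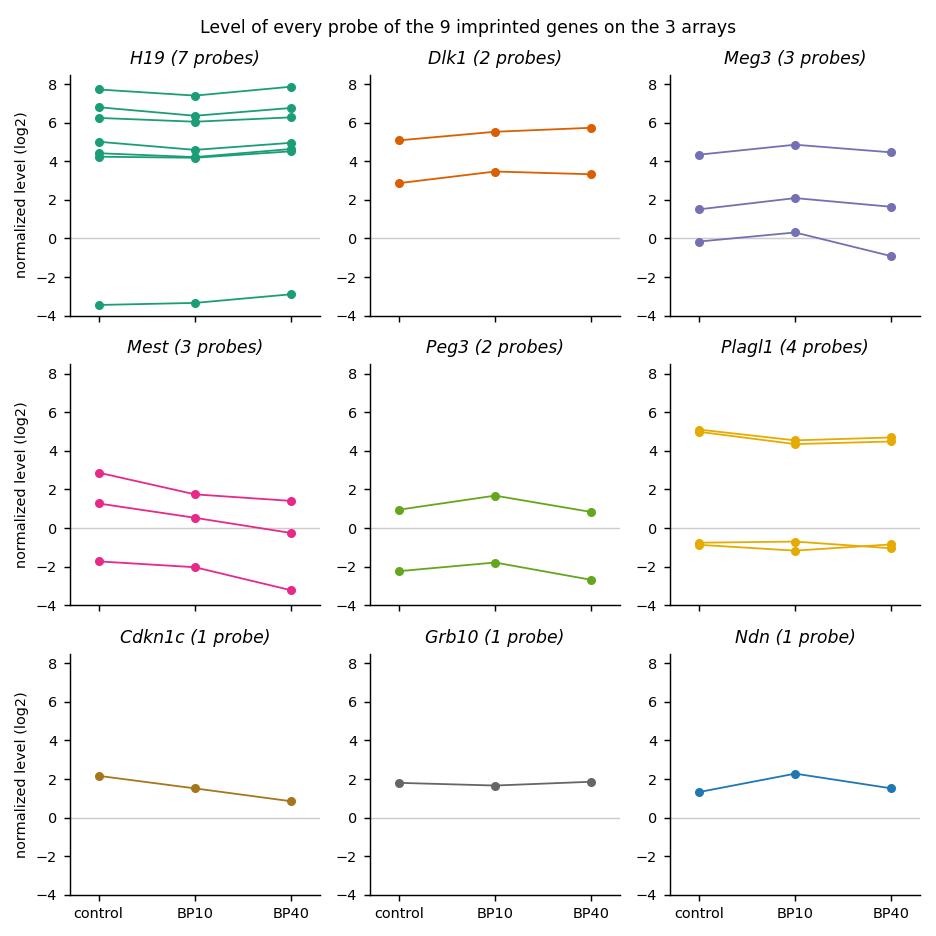
Normalized log2 level (vertical axes; 0 is the 75th percentile of the array) of each probe of the 9 members on the control, BP10 and BP40 arrays, 1 panel per gene and 1 line per probe, with 1 array per group and no error between cultures. All 3 Mest probes and the Cdkn1c probe step down from control to BP10 and again to BP40, while the Meg3, Peg3 and Ndn probes are highest on BP10.

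Dlk1 and Meg3 are neighbours in the Dlk1-Dio3 cluster of chromosome 12 and are read from opposite parental copies. Dlk1 encodes a transmembrane protein of the Notch ligand family that holds back the differentiation of fat cell precursors. Its brighter probe, A_66_P117477, was at 5.08 on control, 5.53 on BP10 and 5.74 on BP40. The other probe, A_55_P2105371, was at 2.87, 3.47 and 3.33. Both were thus higher on both BP arrays, with ratios of 0.45 and 0.61 at BP10 and 0.65 and 0.46 at BP40, none of which reached 2-fold, although at BP40 the sign turned, to -0.16 and -0.35, when the arrays were scaled on spike-in RNA as described below.

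Meg3 had a like ratio at BP10 on all of its probes. A_51_P455997 was at 4.34 on control, 4.86 on BP10 and 4.46 on BP40. A_55_P2033407 was at 1.51, 2.09 and 1.64, and A_52_P196568 at -0.16, 0.31 and -0.92. The ratios at BP10 were 0.52, 0.59 and 0.47, and 83.7% to 89.0% of all probes had a lower ratio. At BP40 the probes parted, with ratios of 0.12 for A_51_P455997, 0.13 for A_55_P2033407 and -0.76 for A_52_P196568, which was designed on another RefSeq transcript of Meg3; the first turned to -0.11 with the normexp background correction, and the first and second turned under spike-in scaling, to -0.70 and -0.68. Between the arrays scanned together, all 3 probes were lower on BP40 than on BP10, with ratios of -0.40, -0.45 and -1.23, and only the last was called.

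Peg3 and Ndn also stood highest on the BP10 array. Peg3 encodes a zinc finger protein that binds DNA and acts in growth and maternal care, and Ndn encodes necdin, a MAGE family protein that restrains proliferation in differentiated cells. The Peg3 probe A_52_P235861 was at 0.95 on control, 1.68 on BP10 and 0.83 on BP40, and A_55_P2163319 was at -2.24, -1.79 and -2.69. Their ratios were 0.73 and 0.45 at BP10 and -0.12 and -0.45 at BP40, and those of BP40 against BP10 were -0.85 and -0.90, which differed from each other by less than the SD between probes of a gene. The single Ndn probe, A_52_P451644, was at 1.32, 2.28 and 1.52, with a ratio of 0.96 at BP10, 0.19 at BP40 and -0.76 for BP40 against BP10. At BP10 Ndn was 1.94-fold higher, just under the threshold, and it reached 1.01 with quantile normalization and 1.07 with the normexp correction; 99.2% of the bright probes and 95.7% of all probes had a lower ratio. Its small ratio at BP40 turned to -0.62 under spike-in scaling.

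**Figure D3:**
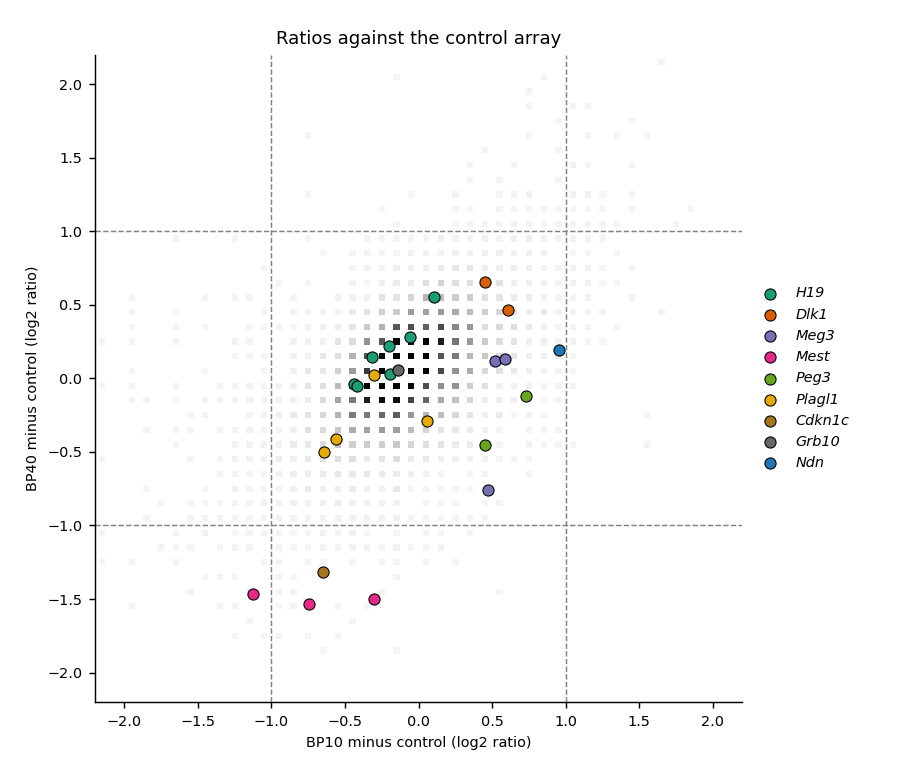
Log2 ratio of BP10 over control (horizontal axis) and of BP40 over control (vertical axis) for the 24 member probes (coloured circles) over the bright probes of the array (grey squares of 0.1, darker where more probes fall; 13081 of 13102 lie inside the axes). Dashed lines mark 2-fold, both axes share the control array, and under spike-in scaling the cloud and all members would sit lower by about 0.8 on the vertical axis only; Mest and Cdkn1c lie below the lower horizontal line, and Ndn just left of the right vertical one.

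H19 differed little between the arrays. The RNA is among the most abundant in fetal mesoderm, limits growth and is the precursor of a microRNA, miR-675. Of the 7 probes, the one at the end of the RNA, A_55_P1961127, was at 7.73 on control, 7.41 on BP10 and 7.87 on BP40. A_30_P01021588 was at 6.80, 6.36 and 6.77, and A_30_P01025068 at 6.25, 6.05 and 6.28. A_30_P01028007 was at 5.01, 4.59 and 4.96, A_30_P01028827 at 4.42, 4.22 and 4.64, and A_30_P01026972 at 4.24, 4.18 and 4.52. The ratios of these 3 lay between -0.42 and -0.06 at BP10 and between -0.05 and 0.28 at BP40. The dim probe, A_55_P1961125, whose letters are printed above, was at -3.45, -3.34 and -2.89, with ratios of 0.11 and 0.56.

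At BP10, 6 of the 7 H19 probes were lower than on control, by ratios of -0.44 to -0.06, and at BP40 against BP10 all 7 were higher, by 0.23 to 0.46, where the median of the bright probes was 0.14. None reached 2-fold. These directions depended on the scaling: at BP10, A_30_P01025068 and A_30_P01026972 turned to 0.04 and 0.08 after the median ratio of equally bright probes had been subtracted, the same correction took A_30_P01025068 to -0.09 for BP40 against BP10, quantile normalization turned A_30_P01026972 to 0.06 at BP10 and A_30_P01025068 to -0.05 for BP40 against BP10, and spike-in scaling turned all 7 at BP40 against BP10, to between -0.58 and -0.34. Igf2, the growth factor gene that shares its enhancers with H19 and is read from the paternal copy, was at 2.54, 3.09 and 2.46, with ratios of 0.55 at BP10 and -0.08 at BP40.

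Plagl1 encodes ZAC1, a zinc finger transcription factor that binds several other imprinted genes. The 2 bright probes near the end of its RNA were lower on both BP arrays. A_55_P1961968 was at 5.11 on control, 4.55 on BP10 and 4.70 on BP40, and A_52_P532456 at 4.99, 4.35 and 4.49. Their ratios were -0.56 and -0.64 at BP10 and -0.41 and -0.50 at BP40, so that each pair agreed within the SD between probes. Each of the 2 dimmer probes was lower at 1 dose only. A_55_P1961965 was at -0.76, -0.70 and -1.05, with ratios of 0.06 at BP10 and -0.29 at BP40. A_55_P2153251 was at -0.87, -1.17 and -0.85, with ratios of -0.30 and 0.02. Of the 4 probes 0 were called in any comparison with this scaling. Spike-in scaling, described below, would lower every ratio that uses the BP40 array by about 0.8. At BP40 it would take both bright probes and A_55_P1961965 past 2-fold, and turn A_55_P2153251 to lower.

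Grb10 encodes an adaptor that binds the insulin and IGF1 receptors and dampens their signal. Its single probe, A_55_P1955457, was at 1.80 on control, 1.66 on BP10 and 1.86 on BP40. The ratios of -0.14 at BP10 and 0.06 at BP40 were smaller than or near the SD between probes of a gene, and the second turned to between -0.14 and -0.01 under 4 of the 6 other scalings and to -0.76 under spike-in scaling. For BP40 against BP10 the ratio was 0.20, beside an SD between probes of 0.15, and lay between 0.09 and 0.20 over the 6 other scalings.

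Counted over probes, 1 of 24 member probes was called at BP10 (Mest, lower), 4 of 24 at BP40 (3 of Mest and 1 of Cdkn1c, all lower) and 2 of 24 for BP40 against BP10 (1 each of Meg3 and Mest, both lower). The share of all probes called in those comparisons was 12.6%, 11.1% and 3.74%, and the share called lower was 9.93%, 8.70% and 1.95%. Most calls on the whole array fell on dim probes, and among bright probes the background was 2.27%, 1.63% and 1.72%, against 1, 3 and 0 of the 18 bright member probes. With 1 probe per gene, 1 of 9 members was called at BP10, 2 of 9 at BP40 and 0 of 9 for BP40 against BP10, where 13.1%, 11.7% and 3.66% of all genes were called. The median ratio of the 9 members was -0.14, 0.06 and -0.34, beside -0.24, -0.12 and 0.06 over all genes tested. All 9 of these probes were bright, and the median over the bright probes of the array was -0.10, 0.05 and 0.14. Probes of a gene share its RNA and are not independent, so the counts over probes weigh H19 (7 probes) and Plagl1 (4 probes) most.

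Spike-in RNA of adenoviral E1A, added to each labeling, gives another view of the scale. Relative to the 75th percentile, the median of the 7 bright E1A probes was higher by 0.01 on BP10 and by 0.82 on BP40 than on control. Scaled on these probes, every ratio that uses the BP40 array would be lower by about 0.8. At BP40 against control 9 of 24 member probes would be called, all lower. Of all probes 37.0% would be called there, and 1.18% of those calls would be higher. Mest would then be at -2.28, -2.35 and -2.32 and Cdkn1c at -2.14. Because the spike-in enters at the labeling, neither the E1A probes nor the 75th percentile gives the amount of RNA per cell. Which of these scalings is nearer to the true ratios was not tested.

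**Figure D4:**
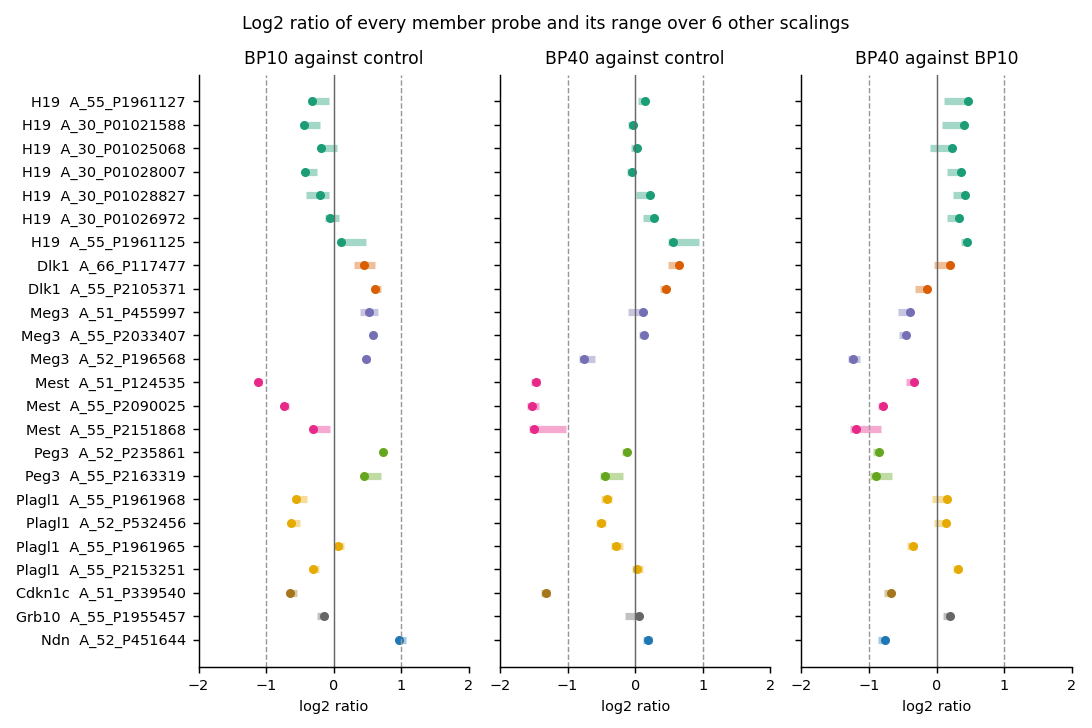
Log2 ratio of each of the 24 member probes (rows, in the order H19 to Ndn) in the 3 comparisons, with the reported value as a circle and the range over 6 other scalings as a bar; spike-in scaling, which lowers every ratio in the middle and right panels by about 0.8 and turns 24 of the 72 values, is left out. Dashed lines mark 2-fold; the bars of Mest at BP40 and of Cdkn1c at BP40 lie wholly beyond the lower line, while those of Grb10 lie near 0.

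The genes listed as imprinted neighbours of the members did not move as blocks. Whether each of them is imprinted in MEF was not measured. Beside Cdkn1c in the Kcnq1 cluster, Cd81, a tetraspanin, was at 6.59, 6.42 and 6.67, Osbpl5, a lipid transfer protein, at 4.69, 4.55 and 4.82, Tssc4 at 3.28, 3.54 and 3.52, and Tnfrsf23 at 3.23, 2.95 and 2.87. Kcnq1ot1, the noncoding RNA that silences its neighbours on the paternal copy, had ratios of 0.12 and -0.27 at BP10 and BP40. Slc22a18 had -0.48 and -0.10, and Ascl2 had -0.47 and 0.52. Phlda2 and Kcnq1 were not well above background on any array. Cdkn1c was the only gene of the cluster that was called with scaling on the 75th percentile.

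Next to Mest, Copg2, a coat protein of Golgi vesicles encoded on the opposite strand, had ratios of 0.23 and 0.45 on 1 probe and -0.07 and 0.39 on the other, where Mest had -1.13 and -1.47. The dim Klf14 had -0.17 at BP10 and was not well above background on BP40, where it was at least 1.64-fold lower. In the Dlk1-Dio3 cluster, the noncoding Mirg had 0.33 and 0.45, its other probe had 0.24 and -0.16, Dio3, which inactivates thyroid hormone, had -0.57 and -0.86, and Rtl1, a gene derived from a retrotransposon, was at -3.99 on control and not well above background on either BP array, so that it was at least 2.14-fold lower at BP10 and at least 2.12-fold lower at BP40. Beside Peg3, Usp29 had -0.76 and -0.69 and Zim1 had -0.18 and 0.16 on 1 probe and 0.44 and 0.49 on the other. Ddc, next to Grb10, had -0.25 and -0.26.

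Around Ndn in the Snrpn-Ube3a cluster of chromosome 7, Magel2, a MAGE family protein like necdin, was at -0.46 on control, -2.01 on BP10 and -2.28 on BP40, which is 2.93-fold and 3.52-fold lower. Mkrn3, dim at -2.68 on control, had ratios of -0.35 and -1.31 on 1 probe and 0.05 and -0.33 on the other. Peg12 had -0.14 and -0.73 on 1 probe and -0.83 and -0.52 on the other. Snrpn, a spliceosome protein, had 0.60 and 0.62, and its 3 probes reached up to 1.01 at BP10 and 0.84 at BP40. Ube3a, a ubiquitin ligase listed as maternal in neurons, had -0.10 and -0.14, and its other probe -1.08 and -0.59. Ndn and Magel2 are thus neighbours, both paternally expressed, with ratios of opposite sign, 0.96 and -1.55 at BP10; at BP40 they were 0.19 and -1.81, where spike-in scaling turned the first.

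**Figure D5:**
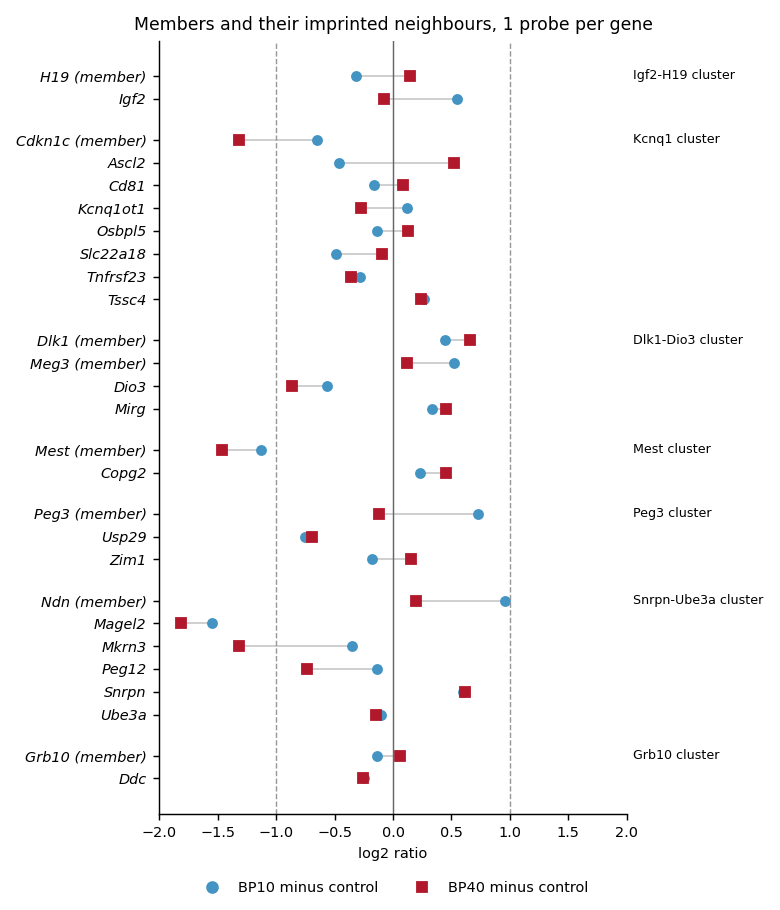
Log2 ratio against control at BP10 (circles) and BP40 (squares) of 8 members and of the other imprinted genes of their clusters that were well above background on all 3 arrays, 1 probe per gene, grouped by cluster. The other Mkrn3 probe, not shown, had -0.33 at BP40. Dashed lines mark 2-fold; Mest, Cdkn1c, Magel2 and Mkrn3 lie beyond the lower line at BP40, and the other genes of their clusters do not, which holds for scaling on the 75th percentile only, since spike-in scaling lowers every BP40 value by about 0.8.

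Of 50 other imprinted genes on the array, 42 were well above background on all 3. At BP10 4 of the 50 were called, all lower, and at BP40 9 of the 50, all lower. Of all genes, 13.1% and 11.7% were called, and 10.6% and 9.21% were called lower. For BP40 against BP10, 2 of the 50 were called, both lower, beside 3.66% of all genes called and 1.77% called lower. Beside -0.24 and -0.12 over all genes, the median ratio of the 50 was -0.17 at BP10 and -0.27 at BP40. Those called at both doses were Magel2, Rtl1 and Rasgrf1, an exchange factor for Ras that was at -3.77 on control and at least 2.51-fold and 2.488-fold lower on BP10 and BP40, where its probe was not well above background; the other Rasgrf1 probe had ratios of 0.68 and 0.75. Genes called at 1 dose alone were Dcn at BP10, and Mkrn3, Airn, Peg10, Tfpi2, Nnat and Slc38a4 at BP40. At BP40 the other probe had -0.33 for Mkrn3, -0.37 for Peg10 and -0.90 for Nnat. The 4 Airn probes ranged from -1.30 to -0.53 there.

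Of 14 factors that set or keep imprints, 2 of the 13 with a value on BP10 were called there and 0 of 14 at BP40, beside the 13.1% and 11.7% of all genes. Zfp57, a zinc finger protein that binds methylated imprinting control regions, was at 0.59 on control, -0.74 on BP10 and -0.37 on BP40, a ratio of -1.33 and -0.96, whereas its other probe had 0.40 at BP10 and -0.40 at BP40. Dnmt3b, a DNA methyltransferase that sets new methylation, was at 0.01, -1.10 and -0.76, with ratios of -1.11 and -0.78, and its 3 probes ranged from -1.11 to 0.06 at BP10. Of 13 with a value on BP10, 5 were higher and 8 lower than on control. Among the brighter ones, Trim28, the partner of ZFP57, was at 4.33, 4.35 and 4.34, and Ehmt2 at 5.08, 5.17 and 5.40. Uhrf1 was at 3.38, 3.51 and 3.37, and Smchd1 at 3.69, 3.55 and 3.63. At BP10 and BP40 the other probe had ratios of 0.51 and 0.23 for Uhrf1 and of 0.22 and 0.26 for Smchd1. The count of 0 of 14 at BP40 holds only for the scaling used for these levels. With spike-in scaling every ratio at BP40 would be lower by about 0.8. That would take some of the factors past 2-fold, Zfp57 and Dnmt3b among them, while others such as Ehmt2 would stay within it.

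Because ZFP57 binds the letters TGCCGC when their CG is methylated, the RefSeq promoter windows of the members were searched for TGCCGC on both strands. The windows took 250 bases before each transcript start in GRCm38.p6, and 7 of the 9 members had 1 or more, 11 windows in all; H19 and Cdkn1c had none in the table. The letters were found in 4 of the 11 windows, 2 of them overlapping windows of Mest and the others of Meg3 and Plagl1, and in 8.68% of 32851 windows of all genes. Mest had 2 matches at its downstream start, both as GCGGCA, the reverse complement, which is in capitals in that window, chr6:30737803-30738052 on the plus strand:
Mest promoter: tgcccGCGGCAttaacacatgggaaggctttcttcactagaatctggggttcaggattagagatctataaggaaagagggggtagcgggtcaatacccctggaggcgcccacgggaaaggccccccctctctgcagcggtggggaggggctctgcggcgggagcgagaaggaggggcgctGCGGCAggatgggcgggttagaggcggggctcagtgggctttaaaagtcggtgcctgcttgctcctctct
The window holds 14 CG pairs, more than 70.6% of all windows, and a second Mest window starts 3 bases before it and holds the same matches. The upstream start of Mest, at chr6:30733256-30733505, had 7 CG pairs and 0 matches. Meg3 and Plagl1 had 1 match each, and Dlk1, Peg3, Grb10 and Ndn had 0. A match is only a run of letters, and neither methylation nor binding was measured here.

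The genes whose 2 ratios against control lay nearest to those of Mest, by Euclidean distance over both ratios among 25174 genes well above background on all 3 arrays, were a transcript named only by its Ensembl number, Olfr1411, an odorant receptor gene, and Fcmr, the receptor for the constant part of IgM. Their distances were 0.01, 0.02 and 0.03, and 51 genes lay within 0.1 of Mest.

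As a check of the cells, 10 of 10 fibroblast markers were well above background on all 3 arrays, with levels from 1.47 to 8.28 on control and a summed level of 10.37 on control, 9.88 on BP10 and 10.05 on BP40. With scaling on the 75th percentile, the scaling used for all marker lists, the fibroblast markers were lower on BP10 for 10 of 10 (median ratio -0.54, beside -0.24 over all genes) and on BP40 for 7 of 10 (median -0.48, beside -0.12), and Col3a1 was called at BP40. These markers are bright, and the median ratio over the bright probes of the array was -0.10 at BP10 and 0.05 at BP40. Of 12 skeletal muscle markers 9 were well above background on all arrays, with a summed level of 4.06, 4.04 and 4.15 of which Acta1 (3.87, 3.86 and 4.01) made up the greater part. Of the 12, 9 were lower on BP10 and 7 on BP40, with median ratios of -0.41 and -0.24, and Pax7 and Myh8 were called lower at both doses. The 6 adipocyte markers had a summed level of 0.37, 0.21 and 0.18, and 2 of them were called lower at BP10 and 1 at BP40. Of 8 macrophage markers, Lyz2 was called higher at both doses, while the summed level of the list was 5.13, 4.84 and 5.01. Endothelial markers summed to 3.05, 2.73 and 3.08, epithelial to 1.52, 1.54 and 0.98, neural to 4.13, 4.07 and 4.16, and cartilage and bone markers to 2.53, 2.53 and 2.46. Within these lists Elavl3 was called higher at BP10 (ratio 4.04) and Ibsp lower (-1.64). At BP40 Emcn (-1.09), Krt5 (-1.05) and Bglap (-1.12) were called lower and Comp higher (1.11). The Elavl3 probe was at -5.39 on control, -1.34 on BP10 and -6.90 on BP40, where it was not well above background. The other Ibsp probe had 0.46 at BP10. The 4 Myh8 probes ranged from -2.25 to -0.61 at BP10 and from -1.16 to -0.01 at BP40. Of all genes, 13.1% were called at BP10 and 11.7% at BP40. Myf5 of muscle, Cdh5 and Tie1 of endothelium, Epcam and Cdh1 of epithelium and Sox2 of neural tissue were not well above background on any array. The part of the fibroblast shift and of these other cell types in the levels of Mest and Cdkn1c was not tested.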

How the data were processed

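RNA of 3 MEF cultures was hybridised to Agilent single-colour arrays. The authors deposited the scanner output of Feature Extraction 10.5.1.1, whose processed intensity has the background and spatial trend of each array removed, with no scaling across arrays, and a series table with the same intensity values. The size of the multiplicative detrending was 0 for control, 0.073 for BP10 and 0.063 for BP40. Here, log2 of the processed intensity was taken, the 75th percentile of the 59305 gene spots of the array was subtracted, outlier spots were left out and the remaining spots of a probe were averaged. Probes were named by the RefSeq symbol of their accession (47.4% of 55681 probes) or else by the name in the file. For counts of genes, the probe detected above background on most arrays stood for its gene, ties going to the brightest. Where a probe was not well above background on 1 array of a pair, its ratio was bounded at the lowest signal well above background there.

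All probes of the 9 members are named; of other imprinted genes, those in a cluster of a member or called at both doses; of the factors and partners, those called and up to 4 bright ones each. The names of imprinted genes called at 1 dose were added after their values were seen. The letters of 1 Meg3 probe are not reported here. The members, gene lists and alternatives were chosen with earlier results of these data known. No test across samples was possible with 1 array per group, whose number limits the precision. The alternatives were a percentile over unflagged spots or over probes above background on all arrays, quantile normalization, normexp with an offset of 50, the series table, subtraction of the median ratio at like brightness, thresholds of 1.5-fold and 3-fold, and other filters on dim probes. Scaling on E1A spike-ins was added after seeing the data. Calling was tested on simulated data. Python 3.11.15, pandas 2.3.3, numpy 2.4.6, and R 4.3.3 with limma 3.58.1 were used.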

Additional observations from a re-analysis of the deposited data

Results flagged for a closer look

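The Meg3 probe A_52_P196568 moved in opposite directions at the 2 doses, up at BP10 and down at BP40, with a ratio of -1.23 for BP40 against BP10. The difference was not tested, since each dose had 1 array. The other 2 Meg3 probes were also lower on BP40 than on BP10, by ratios of -0.40 and -0.45.

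The E1A spike-in probes, which are left out of the gene tables, were brighter on the BP40 array than on control by a median log2 ratio of 0.82 relative to the 75th percentile, with a range from 0.088 to 0.996 over 7 probes.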

How the results depend on the processing

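No paired analysis was possible because each group had 1 array. Over 6 other scalings, the 72 ratios of the members kept their value within the median SD between 2 probes of a gene, dim ones included (0.29 at BP10, 0.22 at BP40 and 0.21 between the BP arrays), for 72 values with either other percentile and with the series table, 67 with normexp, 64 with quantile normalization and 64 after subtraction of the median ratio at like brightness; no called ratio changed sign, and the sign of small ratios turned in 0 to 8 values per setting. Spike-in scaling moved 48 values and turned 24.

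Counts moved as follows. Member probes called at BP10 became 2 with quantile normalization and 2 with normexp (Ndn added, higher), 8 at 1.5-fold and 0 at 3-fold. At BP40 they became 6 at 1.5-fold (1 of them Dlk1, higher), 0 at 3-fold and 9 under spike-in scaling, and for BP40 against BP10 1 with normexp, 7 at 1.5-fold, 0 at 3-fold and 11 under spike-in scaling. Other imprinted genes called at BP10 became 2 with quantile normalization, 2 with normexp, 2 when both arrays had to be above background, 8 at 1.5-fold and 0 at 3-fold. At BP40 they became 4 with quantile normalization, 2 with normexp, 15 at 1.5-fold, 2 at 3-fold, 26 under spike-in scaling and 5 with the median over all probes of a gene. For BP40 against BP10 they became 4 with the percentile over probes above background on all arrays, 4 without a filter on dim probes, 1 with normexp, 10 at 1.5-fold, 1 at 3-fold and 15 under spike-in scaling. Quantile normalization moved the share of higher calls over all probes from 21.0% to 56.4% at BP10 and from 21.7% to 58.8% at BP40, and normexp to 36.4% and 47.8%; subtraction at like brightness gave 49.3% and 48.8%. The cause was not tested.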
